A study of Mus musculus with 6 samples.

Results

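The cells described here carried the authors' class name AT2 Lyz1+, which occurred only in the postnatal day 1 libraries. They numbered 1428 cells, 407 from the female and 1021 from the male library, of 55882 cells with a class in the series and 22821 at day 1. The comparison classes were AT1 (2054 female and 1765 male cells) and AT2 (54 female and 629 male cells) of the same libraries. Each library was a live-sorted suspension of lung from 3 pooled wild-type C57BL/6N mice of 1 sex, and both day 1 libraries were from mice kept in room air (21% oxygen). The remaining 4 libraries were from day 21, 1 of each sex kept in room air and 1 of each sex exposed to 95% oxygen from day 1 to day 5 and then returned to room air. The study's subject was sex as a variable in recovery from neonatal hyperoxic lung injury. With 1 library per sex, age and exposure there was no replicate and no test was made. The 95% intervals given are exact (Poisson for levels, Clopper-Pearson binomial for shares of cells) and cover counting error only, not the spread between mice.

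Alveolar type 2 cells are cuboidal cells of the distal lung that make surfactant, the lipid and protein film that lowers surface tension in the air spaces, store it in lamellar bodies, and serve as progenitors of the flat type 1 cells that form the gas exchange surface. They also secrete defence proteins, among them lysozymes, enzymes that cut the peptidoglycan of bacterial cell walls. The mouse has a pair of neighbouring lysozyme genes: Lyz2, named M-type and known from macrophages and mature type 2 cells, and Lyz1, named P-type and known from Paneth cells of the gut.

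Those genes lie next to each other on the minus strand of chromosome 10 in GRCm38, Lyz1 at chr10:117287797-117292868 and Lyz2 at chr10:117277331-117282321, with 5475 bases between the gene bodies. Their annotated transcripts (GENCODE M21) were 96% identical over 1262 aligned bases, and 97.2% identical in the last 400 bases, where a 3-prime library takes its reads. Of the 310 windows of 91 bases in that stretch of Lyz1, 14 (4.52%) had an exact copy in the same stretch of Lyz2, so reads there could not be told apart. Bases 250 to 51 before each RefSeq start site are shown because the class is named for one gene while the other set it apart from AT2 cells. The bases nearer to the start are not shown, since RefSeq (GRCm38.p6) places the start of Lyz2 49 bases inside the GENCODE gene body given above, and that of Lyz1 at its end. The sequences are from RefSeq, 5′ to 3′ on the gene's strand, and capitals mark the bases that differ between the genes in their alignment (50 bases in each; 75.8% of 198 aligned bases identical).
Lyz1 (chr10:117292919-117293118): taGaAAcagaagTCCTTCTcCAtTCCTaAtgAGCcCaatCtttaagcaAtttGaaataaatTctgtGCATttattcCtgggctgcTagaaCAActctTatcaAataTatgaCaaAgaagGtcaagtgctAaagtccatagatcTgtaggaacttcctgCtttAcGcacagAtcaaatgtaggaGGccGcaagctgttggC
Lyz2 (chr10:117282323-117282522): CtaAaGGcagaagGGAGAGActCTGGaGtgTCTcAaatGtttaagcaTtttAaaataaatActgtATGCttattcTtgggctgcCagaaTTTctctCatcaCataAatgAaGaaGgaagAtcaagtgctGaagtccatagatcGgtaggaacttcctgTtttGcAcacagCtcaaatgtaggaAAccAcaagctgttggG

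The markers were those of a type 2 cell in both libraries. A UMI (unique molecular identifier, 1 counted transcript) of Sftpc, the gene of surfactant protein C, was present in 407 of 407 female and 1021 of 1021 male cells, but also in 94.5% and 98.5% of AT1 cells and 87.6% and 94.5% of gCap cells, so that its presence alone marked no class. Its level did differ, with 157522 and 178448 CPM against 1505 and 2154 CPM in AT1 cells. Lamp3, a lysosomal membrane protein of lamellar bodies, had a UMI in 98.8% and 99.5% of cells, against 4.09% and 4.02% of AT1 and 2.33% and 3.03% of gCap cells. Cxcl15, a lung-specific chemokine, had one in 100% and 99.9%, against 18.3% and 21.9% of AT1 and 10% and 14.6% of gCap cells. Lyz1, the gene in the name, had a UMI in 64.9% (interval 60 to 69.5) of female and 77.1% (74.4 to 79.6) of male cells, and it was the marker that the fewest cells carried. In general capillary endothelial cells (gCap), which should lack all of these genes, a Lyz1 UMI was seen in 10% and 18.5% of cells at a median depth of 5642.5 and 5203 UMIs, against 19540 and 20239 UMIs in AT2 Lyz1+ cells. After thinning every cell to 2000 UMIs, a Lyz1 UMI was left in 46.7% and 58.6% of AT2 Lyz1+ cells and in 3.49% and 8.04% of gCap cells.

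Lyz1 divided the class. In the female library 143 of 407 cells had no Lyz1 UMI, 60 had 1 or 2, 24 had 3 to 9 and 180 had 10 or more. In the male library the numbers were 234, 165, 74 and 548 of 1021 cells. Few cells lay in the narrow range of 3 to 9 UMIs, but those with 10 or more reached 1265 and 1246 UMIs. Of these, 113 of 180 female and 421 of 548 male cells had 100 or more, and the rest lay between 10 and 100. The cells with 10 or more UMIs, 44.2% (39.3 to 49.2) of the female and 53.7% (50.6 to 56.8) of the male cells, held 99.54% and 99.67% of the class's Lyz1 UMIs. The count of 10 was chosen after the values were seen. AT2 cells were divided by Lyz1 in the same manner: 46.3% (32.6 to 60.4) of the female and 45.9% (42 to 49.9) of the male AT2 cells had 10 or more Lyz1 UMIs. Without cells called doublets, as described below, the shares were 36.4% (10.9 to 69.2, 4 of 11 cells) and 46.3% (42.2 to 50.5). These intervals cover counting error only, so whether they overlap those of the AT2 Lyz1+ class is no test of a difference. A UMI of Lyz1 was present in 74.1% and 76.9% of AT2 cells. The name AT2 Lyz1+ therefore did not mark a class in which Lyz1 was present against one in which it was absent, and it is used below only as the authors' label.

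**Figure D1:**
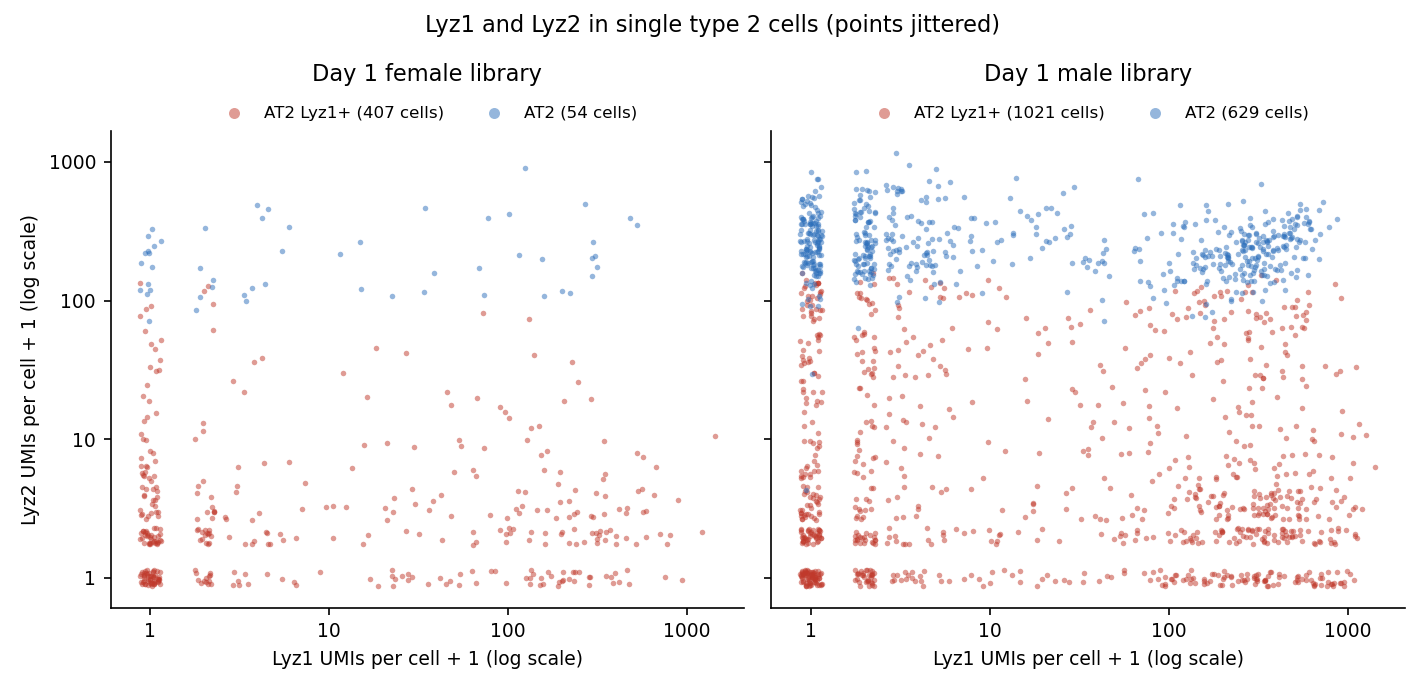
Lyz1 against Lyz2 UMIs in each cell of the classes AT2 Lyz1+ (red) and AT2 (blue), with 1 added to each count, log axes and a small random jitter; each point is 1 cell of the day 1 female (left) or male (right) library. Both classes spread over the whole Lyz1 axis, with clumps at 0 and above 100 UMIs, while they separate on the Lyz2 axis.

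Lyz2 separated the classes, with some overlap. In AT2 Lyz1+ cells the level of Lyz2 was 308 (296 to 321) CPM (counts scaled to the same total in every class and library) in the female and 925 (912 to 938) in the male library, and in AT2 cells it was 9765 (9594 to 9939) and 13167 (13106 to 13228), which gave log2 ratios of -4.98 and -3.83. Lyz1 differed much less, with 4804 (4756 to 4852) and 8484 (8444 to 8524) CPM in AT2 Lyz1+ cells and 3422 (3321 to 3526) and 5652 (5612 to 5692) CPM in AT2 cells, log2 ratios of 0.49 and 0.59. Per cell, the median of Lyz2 was 57.2 and 110 CPM in AT2 Lyz1+ cells and 8113 and 11496 CPM in AT2 cells. The highest AT2 Lyz1+ cell had 5372 CPM in the female and 8449 CPM in the male library, and the lowest AT2 cell had 4238 and 4631 CPM. The classes met in that range, where 4 of 407 female (0.983%) and 67 of 1021 male (6.56%) AT2 Lyz1+ cells lay at or above the lowest AT2 cell. Of the AT2 cells, 14 of 54 female (25.9%) and 132 of 629 male (21%) lay at or below the highest AT2 Lyz1+ cell. Of the whole class, 12.3% of the female and 30.6% of the male AT2 Lyz1+ cells had 10 or more Lyz2 UMIs.

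How many reads of these near-identical transcripts were assigned to the wrong gene was not tested. Of the 674 male cells of both classes with 100 or more Lyz2 UMIs (median 237), 156 (23.1%) had no Lyz1 UMI at all, and of the 648 with 100 or more Lyz1 UMIs (median 322), 91 (14%) had no Lyz2 UMI. In the female library this held for 14 of 54 cells (25.9%) and 33 of 128 cells (25.8%). In the male library 244 cells had 100 or more UMIs of both genes, and in the female library 15 did. Within the AT2 Lyz1+ class, 52.6% of the male cells with 10 or more Lyz1 UMIs and 53.9% of those with 2 or fewer had at most 2 Lyz2 UMIs, and in the female library the shares were 68.3% and 70%.

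Beyond Lyz2, few genes separated AT2 Lyz1+ from AT2 cells in both libraries. The authors' classes were made from these same cells and genes, so a difference between classes is a description, not a test. Genes were compared where both classes together had 20 or more UMIs in each library, and of 11187 such genes 4 (0.0358%) were at least 2-fold higher in AT2 Lyz1+ cells in both libraries and 3 (0.0268%) at least 2-fold lower. The lower genes were Lyz2, Gypc (12 and 21 UMIs in AT2 cells) and Tshz2 (8 and 38 UMIs). The higher genes were the haemoglobin genes Hbb-bs and Hba-a1, the MHC class II gene H2-Eb1 and Dpf1, each with at most 3 UMIs in the female AT2 cells. These 7 genes, apart from Lyz2, are named here after their values were seen. Counted in a single library with the minimum asked of that library alone, 106 genes were higher and 45 lower in the male and 301 higher and 613 lower in the female library. Among the 11187 genes, 44 were past 2-fold in the male and 903 in the female library. Median log2 ratios of marker lists in the female library were 2.15 (immune), 0.78 (mesenchymal), -1.33 (endothelial) and -0.84 (AT1). In the male library they were 0.08, -0.52, 0.18 and 0.33. In the male library alone, with doublets left out and at least 100 UMIs, 2 genes were higher (Hbb-bs and Dapp1) and 2 lower (Lyz2 and Gc) of 9800, and the middle 95% of genes had log2 ratios from -0.33 to 0.41. Of the 54 female AT2 cells 43 (79.6%) were called doublets by Scrublet, which scores barcodes by their likeness to simulated mixtures of 2 cells, against 7.63% of the male AT2 cells, so the female values of this comparison rest on few cells not called doublets. How the authors treated doublets is not given in the sources used here, and female barcodes with a type 2 profile but no class, within the UMI and mitochondrial range of classed cells, were called doublets less often (11.8%). The female AT2 values may therefore not stand for the type 2 cells of that library.

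The surfactant genes were among the many that did not pass against AT2. Sftpc took 157522 CPM of the female and 178448 CPM of the male AT2 Lyz1+ transcripts, that is 15.8% and 17.8% of all UMIs, and 135397 and 188586 CPM in AT2 cells. Sftpa1, the gene of the collectin surfactant protein A, was at 6486 and 7928 CPM in AT2 Lyz1+ and 8211 and 9437 CPM in AT2 cells. Sftpb, whose hydrophobic peptide spreads the surface film, was at 6073 and 6900 CPM against 5462 and 7345 CPM, and Sftpd, another collectin, at 2522 and 2570 CPM against 2229 and 2337 CPM. None of the 4 surfactant protein genes and none of the 16 tested genes of lamellar bodies and surfactant handling passed 2-fold between these classes in both libraries, nor did any of the 23 tested lipid synthesis genes or the 23 tested transcription factors of the lung epithelium. The medians of these 4 lists were between -0.08 and 0.17. With 0.0358% and 0.0268% of all genes past 2-fold, no member of lists of this size passing is near the background and says nothing particular to them.

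**Figure D2:**
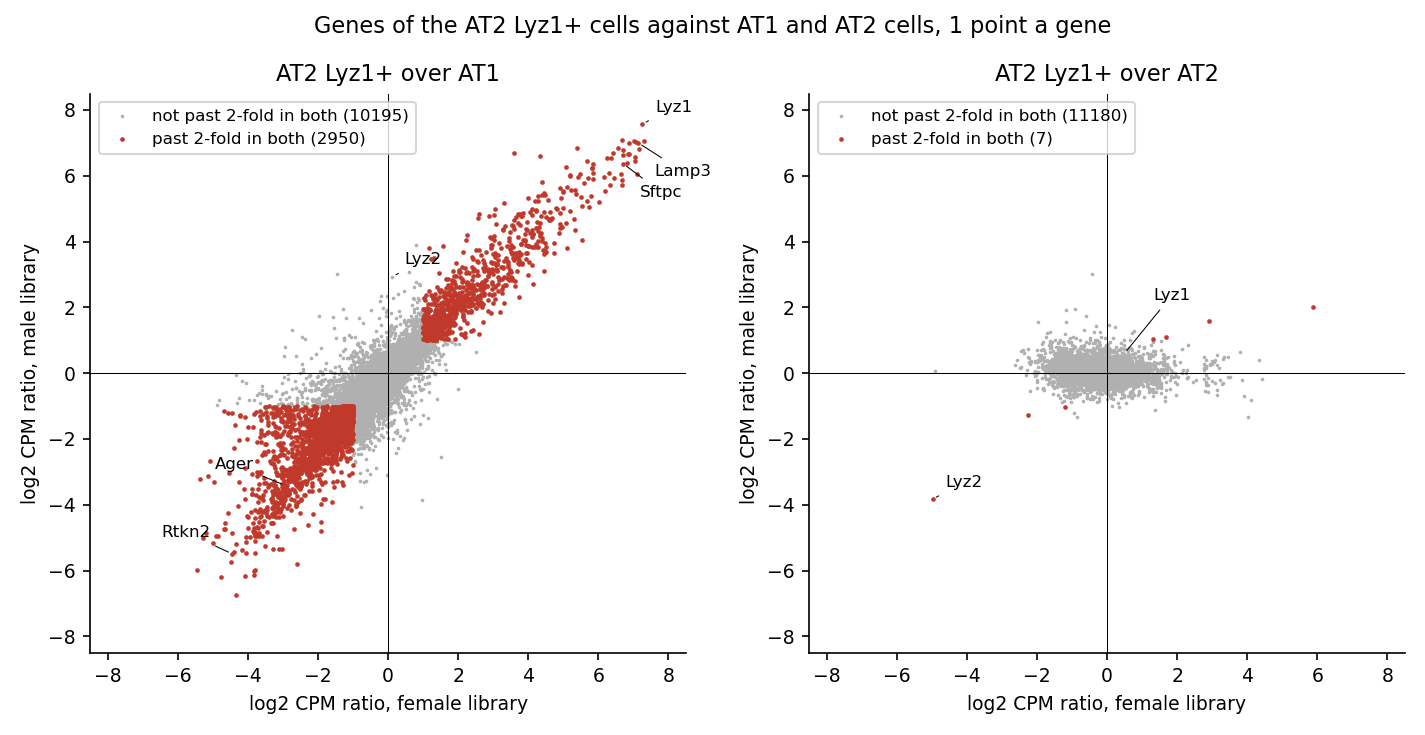
Log2 ratio of CPM (AT2 Lyz1+ over AT1, left; over AT2, right) in the female library (x axis) against the male library (y axis); each point is 1 gene and red points passed 2-fold in both libraries in 1 direction (836 higher and 2114 lower against AT1, 4 higher and 3 lower against AT2). Against AT2, Lyz2 stands apart at -4.98 and -3.83 and Lyz1 lies at 0.49 and 0.59.

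AT1 cells differed from AT2 Lyz1+ cells in many genes. Under the same minimum 13145 genes were compared, and 836 (6.36%) were at least 2-fold higher and 2114 (16.1%) at least 2-fold lower in AT2 Lyz1+ than in AT1 cells in both libraries. The 4 surfactant protein genes took 17.3% and 19.6% of AT2 Lyz1+ UMIs and 0.175% and 0.247% of AT1 UMIs, and the median gene had a log2 ratio of -0.41 in each library. With TMM scaling, which lines up the bulk of genes, the medians were -0.04 and -0.03 and the counts 1234 higher and 1198 lower, so 50.7% of the genes past 2-fold were higher in place of 28.3%. Directions near 2-fold should be read relative to that shift, and the counts for each list below beside the 6.36% of all genes that were higher and the 16.1% that were lower.

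Surfactant proteins and several genes that handle surfactant were higher in AT2 Lyz1+ cells. All 4 surfactant protein genes were past 2-fold in both libraries, Sftpc by log2 ratios of 6.71 and 6.37, from 1505 and 2154 CPM in AT1 cells, where gCap cells had 592 and 850 CPM. Of the 16 tested genes of a list of lamellar body and surfactant handling genes, 13 were higher and none lower. That list also holds type 2 markers of other functions, and Hc, Dlk1, S100g, Etv5, Muc1, Egfl6 and Fabp5 are among the 13. Lamp3 was at 662 and 767 CPM against 4.58 and 5.91 CPM in AT1 cells, and Abca3, the lipid pump of the lamellar body membrane, at 659 and 676 CPM against 57.8 and 52.9 CPM. Slc34a2, a sodium phosphate cotransporter that takes up phosphate released from surfactant lipids, was at 3619 and 3979 CPM against 22.9 and 29.7 CPM. Ctsh, a protease that processes surfactant protein B, was at 2818 and 2805 CPM against 1284 and 1569 CPM and did not pass in the male library, and Pcyt1a and Cpt1a did not pass either.

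Genes of fatty acid synthesis were among those past 2-fold. Of 25 lipid synthesis genes 6 were higher (Acaca, Acly, Acsl4, Fasn, Lpin2 and Scd1) and 2 lower (the sterol exporters Abca1 and Abcg1). With TMM scaling 9 were higher and 1 lower, and without doublets 8 and 2. Fasn, the fatty acid synthase, was at 297 and 304 CPM against 22.4 and 17.1 CPM in AT1 cells, and Scd1, which desaturates fatty acids, at 469 and 690 CPM against 3.87 and 6.77 CPM. The cholesterol pathway genes Hmgcs1, Fdps, Idi1 and Sqle had log2 ratios between -1.27 and 0.46.

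Of 22 tested genes of a list of antimicrobial and secreted defence genes 13 were higher than in AT1 cells and 2 lower (Cxcl2 and Lgals3), and without doublets 16 were higher and 1 lower. The 13 include the MHC class II genes Cd74, H2-Aa and H2-Eb1, which encode membrane proteins. Lyz1 was at 31.1 and 44.5 CPM in AT1 cells, close to the 21.9 and 40 CPM of gCap cells, log2 ratios of 7.26 and 7.57. Cxcl15 was at 3469 and 4229 CPM against 30.2 and 41.8 CPM, Chil1, a chitinase-like lectin, at 756 and 1000 CPM against 12.9 and 12 CPM, and Lcn2, which binds bacterial iron carriers, at 275 and 365 CPM against 27.7 and 10.1 CPM. Il33, an alarmin that acts on innate lymphoid cells, was at 108 and 202 CPM against 0.924 and 1.39 CPM. Csf2, which encodes GM-CSF, a factor that alveolar macrophages need, was at 20.5 and 14.8 CPM against 0.132 and 0.116 CPM. Retnla, a resistin-like secreted protein, was at 1528 and 1964 CPM against 11 and 29.5 CPM. Other genes with the largest ratios were Fabp12, Cst8, Chia1, Hc, Dlk1 and Spink5, each with log2 ratios above 6.5 in both libraries.

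Regulators split in both directions. Of 23 tested epithelial transcription factors 7 were higher (Cebpa, Cebpd, Ehf, Elf5, Etv5, Sox9 and Tfcp2l1) and 6 lower (Foxa2, Gata6, Klf5, Nr3c1, Tead1 and Wwtr1), and with TMM scaling 10 were higher and 3 lower. Cebpa, a factor of type 2 cell maturation, was at 274 and 256 CPM against 9.63 and 7.93 CPM, and Etv5, a target of FGF signalling that maintains type 2 cells, at 165 and 197 CPM against 3.08 and 5.1 CPM. Nkx2-1, the factor shared by both alveolar lineages, was at 494 and 507 CPM against 565 and 615 CPM. Sox9, known from the distal tip progenitors of the embryonic lung, was at 47.7 and 45.3 CPM against 6.56 and 5.79 CPM. Fgfr2, the receptor through which FGF ligands act on type 2 cells, was at 244 and 268 CPM against 28.2 and 26.9 CPM. Of 28 tested genes of FGF, EGF, BMP and Wnt signalling 4 were higher (Areg, Bmp3, Etv5 and Fgfr2) and 8 lower (Bmp4, Dusp6, Egfr, Hes1, Id3, Pdgfa, Shh and Tcf7l2), beside 6.36% and 16.1% of all genes. With TMM scaling 5 were higher and 6 lower.

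Type 1 genes were lower. All 23 AT1 markers were at least 2-fold lower in both libraries (22 with TMM scaling). Ager, a receptor on the basal face of type 1 cells, was at 995 and 725 CPM in AT2 Lyz1+ cells, 7516 and 7763 CPM in AT1 cells and 117 and 140 CPM in gCap cells. Hopx was at 330 and 174 CPM against 3633 and 3515 CPM, and Rtkn2 at 48.4 and 24.6 CPM against 1060 and 1109 CPM. The genes with the largest ratios in this direction by the rule of naming were Scel, Rnd1, Baiap2l2, Popdc3, Slc17a2, Spock2, Wfdc1, Rtkn2, Msln, Gipc2, Cped1 and Rasgrf2. Of 8 tested genes of a list for YAP, the mechanosensitive coactivator, 7 were lower (6 without doublets). They include Tead1, counted above as a transcription factor, and Ccn1 at 21.5 and 18.9 CPM against 327 and 358 CPM. Of 15 genes of the transitional state between type 2 and type 1 cells 10 were lower (8 with TMM scaling) and 1, Areg, was higher. Krt8, the keratin that names that state, was at 192 and 158 CPM against 1135 and 1325 CPM.

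Ion transport genes lay in both directions, and 5 of 17 passed in neither. The epithelial sodium channel subunits Scnn1a, Scnn1b and Scnn1g and the water channels Aqp1 and Aqp5 were lower, and the chloride channel Cftr, the anion transporter Slc26a9, the cotransporter Slc12a2 and the potassium channels Kcnj15 and Kcnq1 were higher, in all 6 of 17 in each direction with Slc34a2 and Sgk1. Scnn1a was at 153 and 90.7 CPM against 612 and 583 CPM, and Cftr at 55.9 and 74.3 CPM against 7.08 and 8.11 CPM. Of 12 genes of the glucocorticoid response 6 were lower (4 with TMM scaling and 7 without doublets), among them Tsc22d3 at 71.7 and 55.1 CPM against 190 and 185 CPM, and the metallothioneins Mt1 and Mt2 were higher. Of 13 dissociation and heat shock genes 6 were lower (4 with TMM scaling) and none higher, with Fos at 331 and 189 CPM against 927 and 494 CPM. Of the markers of other lineages, 8 of 9 immune, 1 of 8 endothelial and 6 of 8 mesenchymal markers were lower than in AT1 cells, with 3, 1 and 3 lower with TMM scaling and 1, 7 and 5 without doublets. Of 8 tested club, ciliated, basal and neuroendocrine markers 3 were lower (Foxj1, Ccdc153 and Tppp3) and 1, Cyp2f2, was higher. Their list summed to 334 and 646 CPM, against 1046 and 1070 CPM in AT1 cells.

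Few cells of the class had many transcripts of the cell cycle. Of 20 cycling genes 11 were lower than in AT1 cells and none higher, but with TMM scaling 6 were lower and 2 higher, and without doublets 4 were lower and 1 higher. Cells with at least 5 UMIs over 8 cycling genes numbered 2 of 407 in the female library (0.491%, 0.0596 to 1.76) and 16 of 1021 in the male library (1.57%, 0.898 to 2.53). They were 2.09% and 0.85% of AT1 cells and 10.1% and 7.91% of alveolar macrophages, at other depths. The summed level of these 8 genes was 43 and 43.7 CPM, and after thinning to 2000 UMIs 6.39% and 7.27% of AT2 Lyz1+ cells had a UMI of any of them, against 10.5% and 9.61% of AT1 cells. Mki67, a nuclear protein of dividing cells, was at 3.48 and 3.25 CPM against 8.62 and 6.77 CPM in AT1 cells.

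**Figure D3:**
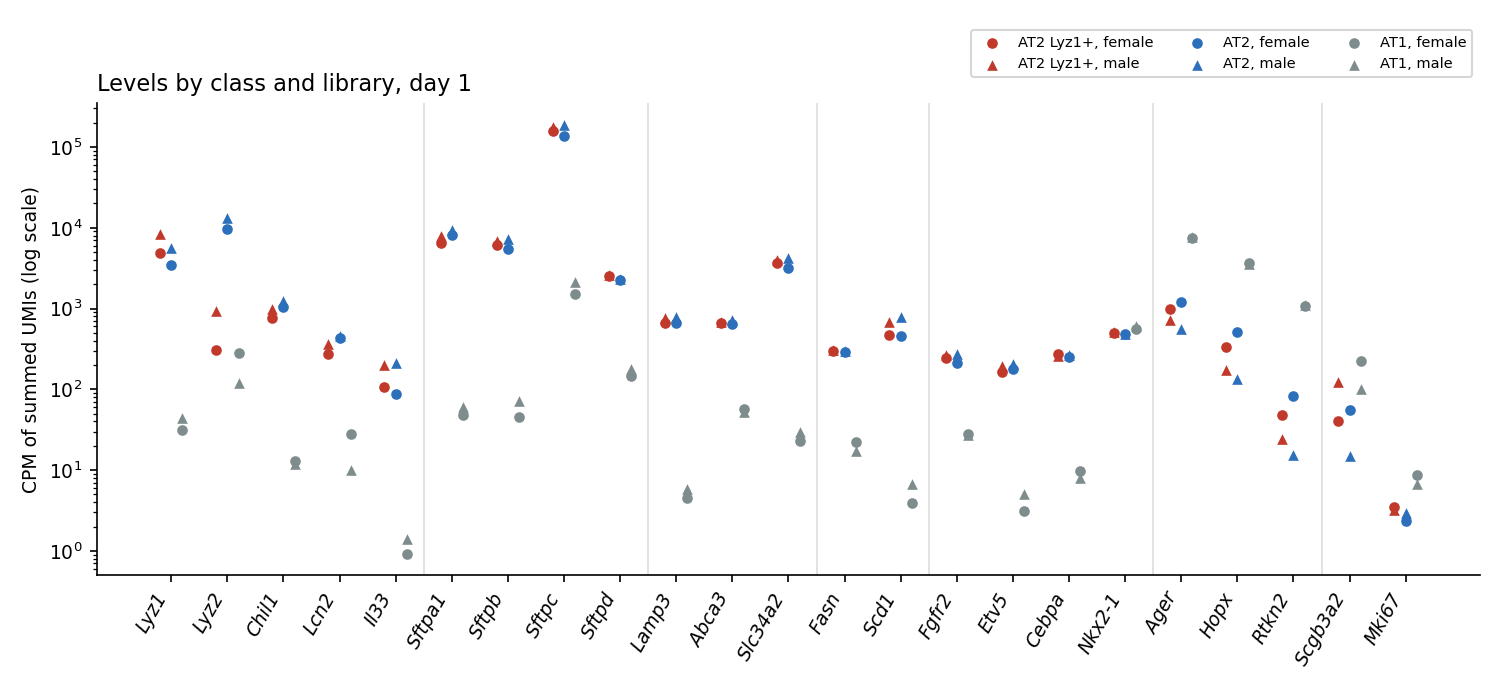
Level of 23 genes in CPM of summed UMIs (log axis) in AT2 Lyz1+ (red), AT2 (blue) and AT1 cells (grey) of the day 1 female (circles) and male (triangles) library; vertical lines part defence, surfactant, lamellar body, lipid, regulator, type 1 and other genes. Red and blue points lie close together except for Lyz2 and, in the male library, Scgb3a2 (124 and 15.1 CPM), while grey points lie far below them for surfactant genes and above them for Ager, Hopx and Rtkn2.

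Among AT2 Lyz1+ cells, Lyz1 was also one of the most uneven genes. The unevenness was measured by the Fano factor, the variance over the mean of the count after thinning to 2000 UMIs per cell, which has a median of 1.08 and 1.07 over 983 genes. Lyz1 had 30.7 and 30.5, Sftpc 22.3 and 15.9, Malat1 16.3 and 11.8, Retnla 11 and 8.54, Sftpa1 6.91 and 4.57, Cbr2 6.31 and 3.77, Dlk1 4.72 and 3.59 and Cxcl15 3.78 and 2.65. The mean count was 9.14 and 15.5 UMIs for Lyz1 but 318 and 360 UMIs for Sftpc. The factor does not correct for that, so it does not rank genes by their spread relative to the mean. Scgb1a1, a secretoglobin of club cells, had 66.9 and 288, but 58.6% of its UMIs in the female library lay in 1 cell and 77% of those in the male library in 2 cells. Scgb3a2, another secretoglobin, had 88.1% of its male UMIs in 1 cell.

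Cells with and without Lyz1 were alike in nearly all other genes. Between members with 10 or more Lyz1 UMIs (180 female and 548 male cells) and those with 2 or fewer (203 and 399 cells), 2 of 6615 genes with at least 100 UMIs were at least 2-fold higher in both libraries, Lyz1 itself and Pon1, and 3 were lower, Aqp5, Scgb3a2 and Scgb1a1. Pon1, a secreted esterase, was at 80.4 and 101 CPM in the Lyz1-high cells and 20.6 and 44 CPM in the Lyz1-low cells. Aqp5, a water channel of type 1 cells, was at 123 and 60.4 CPM against 330 and 196 CPM. Without doublets, Lyz1, Pon1 and Aqp5 were past 2-fold and the secretoglobins were not. Sftpc (log2 ratios 0.11 and 0.05), Sftpb (0.03 and 0.02), Lamp3 (0.08 and 0.02) and Abca3 (0.03 and 0.02) hardly differed between Lyz1-high and Lyz1-low cells, and Lyz2 was -0.85 and -0.52.

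Clustering of the members alone gave 5 sub-clusters, and Lyz1 parted the largest of them. Lyz1 was not left out of the genes open to the clustering, so its split between sub-clusters is a description and no separate support. The first (535 cells) was led by Lyz1 at 15945 CPM, with Pon1 at 109 CPM, and all of its 100 female and 435 male cells had 10 or more Lyz1 UMIs. The second (463 cells) had Lyz1 at 146 CPM and 6 of 88 female and 29 of 375 male cells with 10 or more UMIs. The third (172 cells) had Lyz1 at 196 CPM and was led by Scgb1a1 and Aqp5 (540 CPM), with Ager at 1420 CPM, Hopx at 397 CPM, Il33 at 41.8 CPM and Pon1 at 10.2 CPM. Its Scgb1a1 amounted to 8335 UMIs in 39 cells, and the highest single cell of the class had 7182 Scgb1a1 UMIs in the male and 921 in the female library. Its cells with 10 or more Scgb3a2 UMIs were 2 in the female and 1 in the male library. The fourth (165 cells) was led by endothelial genes, with Cldn5 at 550 CPM and Pecam1 at 170 CPM, and 78.2% of its cells were called doublets. It also had summed immune markers at 1300 CPM, against 85.5 to 102 CPM in the other sub-clusters, and the highest summed mesenchymal markers, at 122 CPM. The fifth (93 cells) was led by type 1 genes, with Spock2 at 90.2 CPM, Rtkn2 at 206 CPM and Ager at 2119 CPM, and 39.8% were called doublets. The third had 12.8% called doublets and the first and second 1.12% and 1.08%. Sftpc stayed between 141934 and 184789 CPM and Lamp3 between 532 and 795 CPM in all 5.

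**Figure D4:**
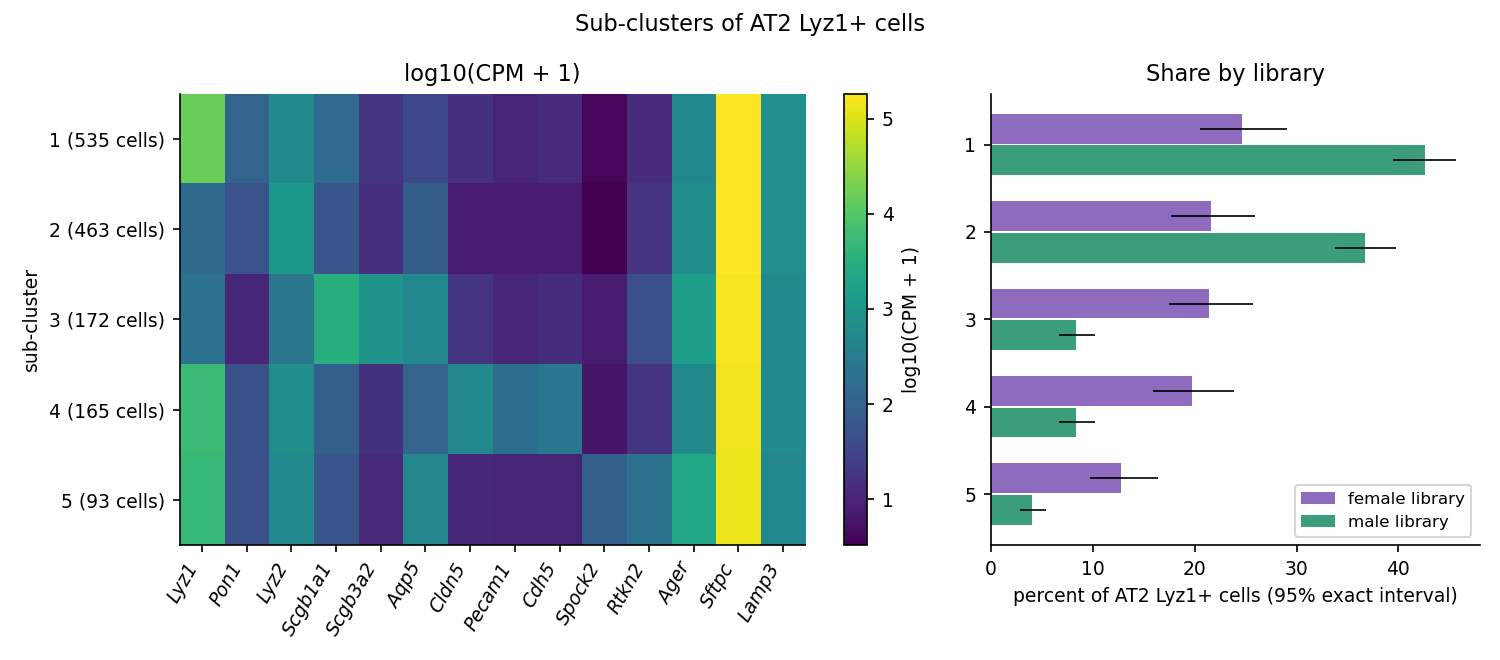
Left, level of 14 genes in the 5 sub-clusters of AT2 Lyz1+ cells as log10(CPM + 1); right, share of each library's AT2 Lyz1+ cells in each sub-cluster, with exact binomial 95% intervals as error bars. Sub-clusters 1 and 2 hold 42.6% and 36.7% of the male cells and 24.6% and 21.6% of the female cells, and sub-clusters 3, 4 and 5 hold larger shares of the female cells.

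The make-up of the class differed between the libraries. Sub-clusters 1 and 2 held 24.6% (20.5 to 29.1) and 21.6% (17.7 to 25.9) of the female cells against 42.6% (39.5 to 45.7) and 36.7% (33.8 to 39.8) of the male cells. Sub-cluster 3 held 21.4% (17.5 to 25.7) against 8.33% (6.7 to 10.2). Sub-cluster 4, led by endothelial genes, held 19.7% (15.9 to 23.9) against 8.33%, with the same interval, and sub-cluster 5, led by type 1 genes, 12.8% (9.69 to 16.4) against 4.02% (2.9 to 5.41). Doublets were called for 24.3% of the female and 9.79% of the male AT2 Lyz1+ cells.

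Most genes higher in the female cells were ones with higher levels in other lineages. Of 11276 genes with at least 50 UMIs over the libraries, 357 (3.17%) were at least 2-fold higher in the female and 41 (0.364%) in the male cells. Of the 357, 317 (88.8%) were at least 4-fold higher in a non-epithelial class of the female library than in these cells, against 29.6% of all genes tested, and without doublets 43 genes were higher in the female cells, 31 of them among the 357. The genes higher in the male cells numbered 40 without doublets, 17 of them among the 41. Of the 41, 18 (43.9%) were at least 4-fold higher in a non-epithelial class of the male library, against 31.6% of all genes tested. Of 8 endothelial markers 7 were past 2-fold higher in the female cells, with a summed level of 727 CPM against 268 CPM, and of 22 tested AT1 markers 7, with 5563 CPM against 3915 CPM. Summed immune markers were at 521 and 156 CPM, mostly S100a8 and S100a9, with Cd3e at 1 UMI in the female and 0 in the male cells, and summed mesenchymal markers at 57 and 38.4 CPM, with Dcn at 0 in the female cells. The part of these transcripts in the sex difference was not tested beyond leaving doublets out. The sex-linked genes followed the labels, with Xist at 382 CPM in the female and 0.534 CPM in the male cells and Ddx3y, Eif2s3y, Kdm5d and Uty at 0 in the female cells.

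Some defence genes, Lyz2 among them, and some lipid synthesis genes passed 2-fold between the sexes, but most genes of both lists did not. The levels of Lyz1 (log2 female over male -0.82, and -0.67 without doublets), Il33 (-0.91 and -0.71) and Lyz2 (-1.58 and -2.02) were lower in the female cells, and only Lyz2 of these passed 2-fold. Lyz2 also separated the class from AT2, and the highest AT2 Lyz1+ cell had 5372 CPM in the female and 8449 CPM in the male library. The part of that edge in the Lyz2 difference was not tested. Of 19 tested antimicrobial and secreted defence genes 6 were at least 2-fold lower in the female cells (Lyz2, Scgb1a1, Scgb3a2, H2-Aa, H2-Ab1 and H2-Eb1) and none higher, beside 0.364% of all genes. Without doublets H2-Aa was at -0.79 and Scgb1a1 at 1.18. The female Lyz2-low barcodes without a class described below, which were cut on Lyz2, had Lyz2 at 864 CPM and Lyz1 at 5750 CPM. The levels were 308 and 4804 CPM in the female class and 925 and 8484 CPM in the male class. The part of class assignment in the sex difference was not tested. In AT2 cells Lyz1 was at 3422 CPM in the female and 5652 CPM in the male library. The cholesterol synthesis genes Sqle (15.9 and 4.71 CPM) and Idi1 (40.6 and 13.3 CPM) were higher in the female cells, by log2 ratios of 1.95 and 1.79 without doublets. With Insig1 and Abcg1 they made 4 of 24 tested lipid synthesis genes, beside 3.17% of all genes. The other 20 passed in neither direction, and the median log2 ratio of the list was 0.13. None of the 4 surfactant protein and 16 lamellar body list genes tested passed 2-fold between the sexes, which is near the background of 3.17% and 0.364%. Scgb3a2, at 40.4 and 124 CPM, turned from -1.61 to 1.73 without doublets and rests on 1 male cell. With 1 library of each sex, sex and library cannot be told apart.

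The share of the class in a library depended on which barcodes had been given a class. AT2 Lyz1+ cells were 3.53% (3.2 to 3.88) of the female and 9.05% (8.53 to 9.6) of the male cells with a class, and AT2 cells 0.468% (0.352 to 0.61) and 5.58% (5.16 to 6.02). Of both type 2 classes together, AT2 Lyz1+ made up 407 of 461 cells (88.3%, 85 to 91.1) in the female and 1021 of 1650 (61.9%, 59.5 to 64.2) in the male library. A type 2 profile, set after the values were seen as Sftpc of at least 5% of UMIs with a Lamp3 and a Cxcl15 UMI, was found in 1668 female and 2394 male barcodes, of which 1214 and 743 had no class. Among all barcodes with this profile, those with Lyz2 below every AT2 cell were 63.5% (61.1 to 65.8) in the female and 58.8% (56.8 to 60.8) in the male library. Without doublets these shares were 62.9% (60.1 to 65.7) and 56.8% (54.3 to 59.2). The libraries thus lay closer together in this share than in the share of the authors' classes. The cut was each library's own lowest AT2 cell, at 4238 CPM in the female and 4631 CPM in the male library. These intervals cover counting error only, so whether they overlap is no test of a difference.

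**Figure D5:**
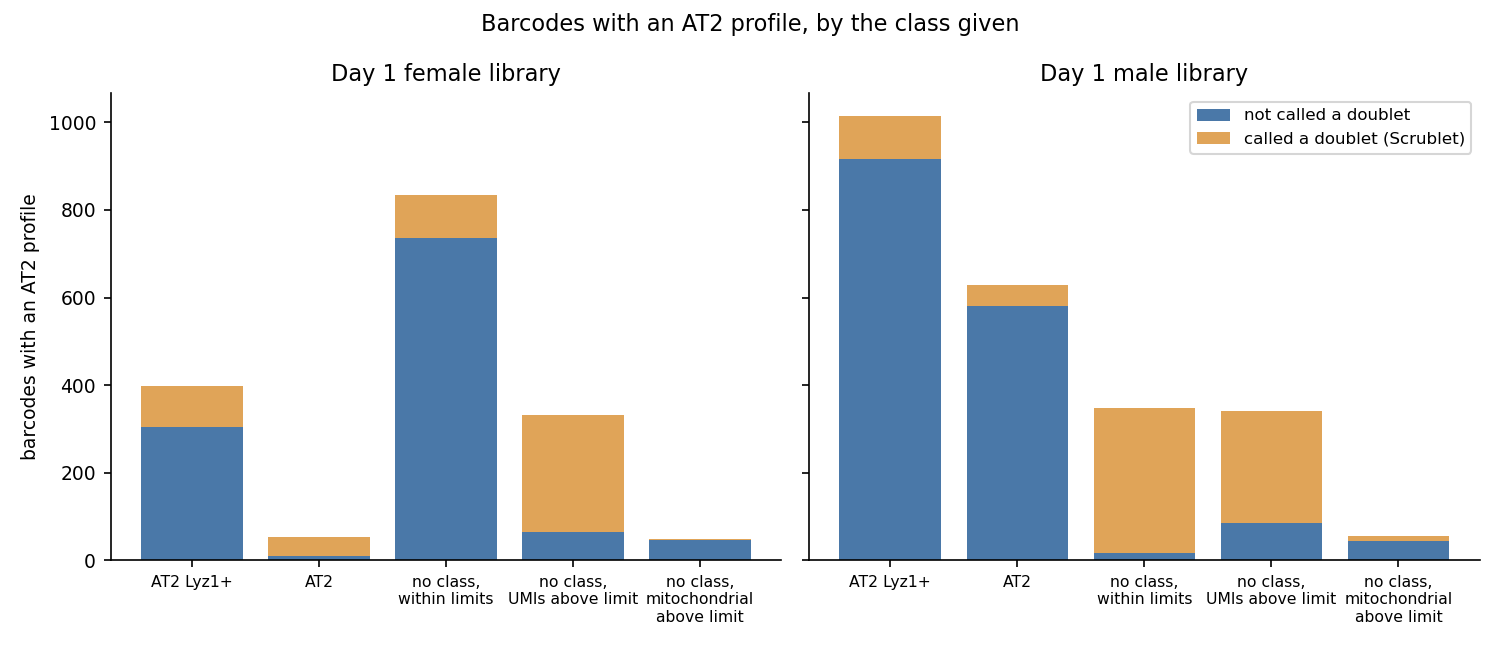
Number of barcodes with an AT2 profile in the day 1 female (left) and male (right) library, by the class given to them or, without a class, by whether they exceeded the UMI or mitochondrial range of classed cells; orange parts were called doublets by Scrublet. In the female library 834 barcodes within both limits had no class, of which 98 were called doublets, against 347 in the male library, of which 331 were.

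The unclassed female barcodes gave a second look at the Lyz2 difference. Those within both limits and not called doublets were parted at the lowest Lyz2 level of the AT2 class, which put 369 below it and 367 above. Before doublets were left out, the female barcodes within both limits carried a mean of 2.67 UMIs of the immune genes Ptprc, Laptm5 and Tyrobp, against 0.656 in female AT2 Lyz1+ barcodes, and the part of these transcripts in the values below was not tested. Lyz2 was at 864 and 12298 CPM in them, as this split made it, and Lyz1, which the split did not use, at 5750 and 4246 CPM (log2 ratio 0.44). Of 8274 genes with at least 100 UMIs, none was at least 2-fold higher and 3 were lower in the Lyz2-low barcodes, Lyz2, Arg1 and B4galnt1. The middle 95% of genes had log2 ratios from -0.37 to 0.42. Cells with 10 or more Lyz1 UMIs were 47.2% of the Lyz2-low and 37.3% of the Lyz2-high barcodes.

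At day 21 no cell carried the class AT2 Lyz1+, and 7 (male room air) to 133 cells (female room air) were called AT2. Their Lyz2 level was 20950 CPM in the female and 16644 CPM in the male room air library and 16040 and 21491 CPM in the female and male hyperoxia libraries, and their Lyz1 level 2063, 5348, 1639 and 708 CPM in that order. A Lyz1 UMI was present in 36.8% (28.6 to 45.6), 57.1% (18.4 to 90.1, 4 of 7 cells), 30.5% (19.2 to 43.9) and 28.6% (19.2 to 39.5) of them. Dlk1, a Notch-like ligand of fetal tissues, was at 2534 and 3649 CPM in day 1 AT2 Lyz1+ cells and at 0 in the day 21 AT2 cells of all 4 libraries. Cd74, the MHC class II chaperone, was at 163 and 296 CPM at day 1 and between 2665 and 3142 CPM at day 21. Between AT2 Lyz1+ and AT2 cells of day 1, neither Dlk1 nor Cd74 passed 2-fold in both libraries. The day 21 counts were made with another Cell Ranger version, so age and counting cannot be told apart, and few cells stand behind these levels.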

How the data were processed

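Single-cell RNA was measured in 6 mouse lung libraries, of which the 2 from day 1 hold the class described. Each deposited matrix held raw UMI counts, made by the authors with Cell Ranger 6.0.0 at day 1 and 7.0.1 at day 21 per the file headers, and with Seurat 4.1.1 per the submitters' processing notes. Class names were the authors', from their deposited annotation; the steps behind them, any doublet removal and whether intronic reads were counted are not given in the sources used here. The day 1 libraries held 160805823 (female) and 163649658 (male) UMIs, and cells with a class reached at most 28239 and 33008 UMIs and 5.08% and 5.03% mitochondrial UMIs. No barcode was shared by AT2 Lyz1+ cells of the 2 libraries (0), and 62 were shared by the libraries in all.

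From these counts, UMIs were summed per library and class and given as CPM, which counts molecules from their 3-prime ends and is not scaled by length. Log2 ratios used a prior count of 2 scaled to depth. A gene was counted as higher or lower at 2-fold or more in both libraries, among genes with at least 20 UMIs over the 2 classes in each (50 over the libraries between sexes). No p-value was computed. The members, lists and rules were chosen with earlier results of these data known. Named genes were those of 20 lists, the 15 with the highest CPM, 12 per direction and comparison by the smaller ratio (at least 100 UMIs in each library of the higher class, 20 for AT2), 5 per direction between sexes (at least 200 UMIs) and 12 by Fano factor, without mitochondrial, ribosomal, haemoglobin and model genes or genes with 4 times the level in a non-epithelial class. Doublets were called with Scrublet in scanpy 1.11.5 and kept in the main values. Sub-clusters came from Leiden (leidenalg 0.10.2, resolution 0.5, 1000 variable genes, 20 components, 15 neighbours). TMM factors came from edgeR 4.0.16. The ratio and count steps were tested on simulated data. Coordinates are from GENCODE M21 (GRCm38).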

Additional observations from a re-analysis of the deposited data

Results flagged for a closer look

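Signal of the type 2 kind was found in barcodes outside the authors' classes, which the comparisons between classes do not use. In the female day 1 library 1214 barcodes without a class had an AT2 profile, and in the male library 743 did, against 398 and 1015 such barcodes in the AT2 Lyz1+ class. Of the 1214, 332 had more UMIs than any classed cell, and 48 of the rest had a larger mitochondrial share than any classed cell. Of the 743, the numbers were 340 and 56. Scrublet called 30.2% of the female and 80.3% of the male unclassed barcodes doublets, and 79.6% of the female AT2 class. Lyz2 lay below every AT2 cell in 54.7% and 61% of the unclassed barcodes. The unclassed barcodes carried a mean of 6.12 (female) and 13.9 (male) UMIs of the immune genes Ptprc, Laptm5 and Tyrobp together, against 0.656 and 0.47 in AT2 Lyz1+ barcodes with the profile.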

How the results depend on the processing

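With TMM scaling 1198 genes were lower than in AT1 cells. At 100 or more UMIs 544 of 10469 genes were higher. Without cells that carried other lineages' markers 403 were higher and 1156 lower of 8243 genes, beside 836 and 2114 of 13145 in the main values. That filter left 37 of 407 female and 186 of 1021 male AT2 Lyz1+ cells. Against AT2 cells, 2 genes were higher without doublets, 1 of them among the main 4, and 1 higher and 1 lower at 100 or more UMIs. With no minimum 75 were higher and 63 lower, and without cells with other lineages' markers, which left 1 female AT2 cell, 1 was lower and 4 were higher, of which 0 were among the main 4. In the male library alone, without doublets and at 100 or more UMIs, 2 were higher, and between the female barcodes without a class 0 were higher and 3 lower. The lower genes between those female barcodes include Lyz2, on which the barcodes were split. From 1 library alone, under the main minimum and with doublets, against AT2 106 to 301 genes were higher and 45 to 613 lower, the larger counts being those of the female library with its 54 AT2 cells. Against AT1, from 1 library, 963 to 1213 were higher and 2999 to 3035 lower. Between the sexes, 43 genes were higher in the female cells without doublets, and at 200 or more UMIs 163 were higher in the female and 15 in the male cells.

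The share of AT2 Lyz1+ cells in the female and male library was 2.72% and 7.06% of every barcode, 16.2% and 29.9% of epithelial cells and 3% and 8.73% without doublets. With an AT2 profile and Lyz2 below every AT2 cell in place of the class, it was 7.08% and 9.73% of every barcode. Against AT1, the 12 genes per direction with the largest ratios, which lie far from 0, kept their direction in all 264 results under alternatives, and 77 moved by more than their error. Without cells with other lineages' markers the named genes moved in both directions. The mean log2 ratio fell from 7.05 to 4.89 for Fabp12, from 6.98 to 5.41 for Cst8 and from 6.94 to 5.39 for Chia1. It rose from 7.42 to 7.80 for Lyz1, from 6.75 to 7.05 for Cxcl15, from 7.07 to 7.26 for Lamp3 and from 7.06 to 7.28 for Sftpa1. Few cells stand behind these values, 37 of the female and 186 of the male AT2 Lyz1+ class. Without the sub-clusters led by endothelial or type 1 genes Spock2 went from -5.49 to -7.17, and 793 genes were higher and 2789 lower than in AT1 cells. The settings for the female barcodes without a class, the male library alone without doublets, the sub-clusters left out and the AT2 profile were chosen after seeing the data. The cause of these changes was not tested. Ratios between classes are paired within each library as they stand, with no test. Between the sexes, no paired analysis was possible because the libraries share no animal.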

Other observations

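The following 5 genes, picked after their values were seen, had higher levels in the Lyz1-high members without reaching 2-fold in both libraries. Retnla was at 1947 and 2349 CPM in Lyz1-high and 1169 and 1384 CPM in Lyz1-low cells, Col6a1 at 457 and 540 CPM against 228 and 318 CPM, and Col6a2 at 220 and 282 CPM against 94 and 161 CPM. Cblif, which encodes gastric intrinsic factor, was at 39.4 and 57.2 CPM against 19.3 and 31.9 CPM, and the membrane protease gene Tmprss4 at 24.1 and 21.1 CPM against 8.6 and 11.5 CPM. Without doublets their log2 ratios were 0.74 and 0.80 for Retnla, 0.91 and 0.72 for Col6a1, 1.18 and 0.75 for Col6a2, 1.21 and 0.80 for Cblif and 1.55 and 0.84 for Tmprss4.

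H2-Ab1, an MHC class II gene, was at 4.35 CPM in the female and 15.3 CPM in the male AT2 Lyz1+ cells, and between 393 and 471 CPM in the day 21 AT2 cells. It did not pass 2-fold in both libraries between AT2 Lyz1+ and AT2 cells of day 1. As stated above, the day 21 counts came from another Cell Ranger version and from few cells.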
